A study of Mus musculus with 16 samples.

Results

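The genes of MHC class II antigen presentation were followed in the ileum and duodenum of mice with and without Neurog3, which encodes the transcription factor that commits intestinal progenitors to the enteroendocrine (hormone-producing) lineage. The set holds 10 genes, found by matching Ensembl identifiers of the deposited count table to a list of mouse symbols, and all 10 were found among 55359 identifiers. They are H2-Aa, H2-Ab1 and H2-Eb1 (peptide-binding chains), Cd74 (invariant chain), H2-DMa, H2-DMb1 and H2-DMb2 (DM chains), H2-Oa and H2-Ob (DO chains), and Ciita (transcriptional coactivator). Mutant mice were adult C57BL/6N males of genotype Neurog3f/f; Villin-CreERT2. Their Cre recombinase needs tamoxifen and comes from a Villin promoter, so it acts in epithelial cells of the gut. Control mice were C57BL/6N males of genotype Neurog3f/f, so both groups carried the floxed alleles and both ate a high fat diet, and tissue was collected 5 weeks after tamoxifen. There were 4 mutant and 4 control mice, and each gave 1 ileum and 1 duodenum library of total RNA. Mice are named by the numbers in their labels, with M for the mutants (M136, M167, M168 and M177) and C for the controls (C133, C134, C151 and C154).

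MHC class II molecules carry peptides from endosomes to the cell surface, where CD4 T cells read them. An alpha and a beta chain pair in the endoplasmic reticulum with the invariant chain, DM exchanges the last fragment of that chain for other peptides, and DO holds DM back, chiefly in B cells. In the gut the genes are transcribed in dendritic cells, macrophages and B cells and also in epithelial cells, where interferon gamma induces them through CIITA.

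Libraries held 40.9 to 67.2 M counts. Levels are given in CPM, the counts of a gene scaled to the size of its library. A gene is said to have fallen or risen where its adjusted p was under 0.05 in edgeR's quasi-likelihood test, with Benjamini-Hochberg adjustment over all genes tested. Neurog3 stood at 0 to 0.0164 CPM in mutant ileum against 0.56 to 1.03 CPM in control ileum, and at 0 to 0.0236 CPM in mutant duodenum against 2.43 to 2.78 CPM in control duodenum. Sums over 8 epithelial genes (6249 to 12493 CPM) and 6 smooth muscle genes (698 to 3764 CPM) show that the libraries held transcripts of epithelium and of smooth muscle together. The libraries of control mice C134 and C154 stood apart by lymphoid follicle transcripts. The complement receptor gene Cr2, used by B cells and by the stromal cells of follicles, reached 27.4 and 27.2 CPM in their ileum and 6.88 and 13.1 CPM in their duodenum, against at most 1.77 CPM in the other 12 libraries. A second split ran through the duodenum, where 12 exocrine pancreas genes took 15.9 and 16.3% of the counts of mutant mice M177 and M167 and 0.00699 to 3.75% of those of the other 6 mice. C134 and C154 held the lowest shares, 0.00699 and 0.00719%, against 2.7 and 1.81% in C133 and C151. Their ileum shares were also the lowest (0.0151 and 0.0121%), so leaving them out also removes the controls with the fewest pancreas transcripts.

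All 10 genes were lower in mutant ileum, and 8 of the 10 were lower in mutant duodenum. Over all genes tested, 14.6% were called lower in the ileum and 5.11% in the duodenum. The median log2 fold change of the 10 genes, mutant over control, was -2.53 in the ileum and -1.15 in the duodenum, beside -0.03 and 0.02 over all genes tested. In 9 of the 10 genes in each tissue, every mutant library lay below every control library, which held for 16% of all genes tested in the ileum and 10.8% in the duodenum. In bulk tissue, fewer cells that transcribe these genes and less RNA per cell cannot be told apart. Without control mice C134 and C154, 9 genes were lower in the ileum and 7 in the duodenum, and without mutant mice M167 and M177 these counts were 7 and 7.

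**Figure D1:**
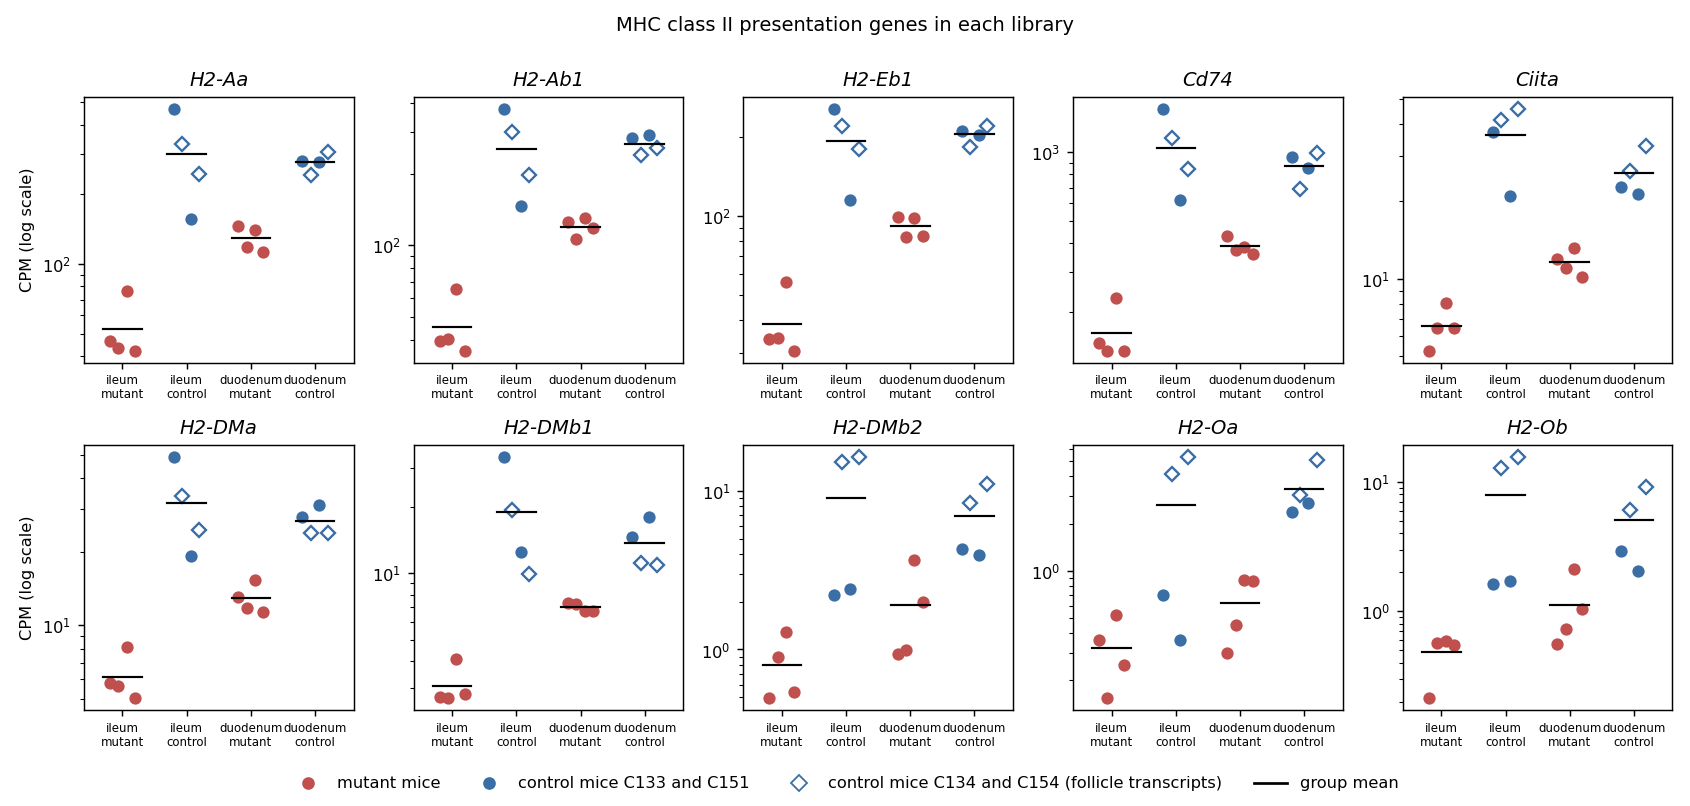
CPM of each of the 10 genes (vertical axes, log scale) in the 16 libraries, by tissue and genotype, with group means as lines and control mice C134 and C154 as open diamonds. Every mutant library lies below every control library in 9 of 10 genes of either tissue, and the diamonds are the highest 2 control libraries of either tissue in H2-DMb2, H2-Oa, H2-Ob and Ciita.

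The peptide-binding chains set the pattern. H2-Aa, the alpha chain of I-A, stood at 46.6, 43.3, 76.6 and 42.2 CPM in mutant ileum (in the order M136, M167, M168, M177, used throughout), against 467, 332, 157 and 245 CPM in control ileum (in the order C133, C134, C151, C154). In the duodenum it stood at 146, 119, 140 and 113 CPM in the mutant mice against 279, 242, 276 and 304 CPM in the control mice. The groups did not overlap in either tissue, and the control ileum was the most spread. H2-Aa fell by 2.49 on the log2 scale in the ileum (SE 0.36, adjusted p = 0.00146), a 5.62-fold lower level, and by 1.07 in the duodenum (SE 0.12, adjusted p = 0.000945), a 2.1-fold lower level. H2-Ab1, the beta chain that pairs with H2-Aa, stood at 39.6, 40.3, 65.6 and 36 CPM in mutant ileum against 375, 301, 146 and 198 CPM in control ileum. Its duodenum levels were 126, 106, 130 and 118 CPM in mutant mice against 284, 241, 293 and 257 CPM in control mice. H2-Ab1 fell by 2.46 (SE 0.33, adjusted p = 0.00099) in the ileum and by 1.15 (SE 0.11, adjusted p = 0.000322) in the duodenum, values close to those of its partner chain. H2-Eb1, the beta chain of I-E, averaged 38.7 ± 11.6 CPM in mutant ileum and 192 ± 59.6 CPM in control ileum, and 91.1 ± 8.73 CPM in mutant duodenum and 204 ± 15.5 CPM in control duodenum (SD, n = 4 mice each). It fell by 2.28 (SE 0.28, adjusted p = 0.000544) in the ileum and by 1.15 (SE 0.11, adjusted p = 0.000297) in the duodenum.

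Cd74, the invariant chain that escorts the chains to the endosome, was the most abundant of the 10 genes. It averaged 163 ± 46.4 CPM in mutant ileum (SD, n = 4), where mouse M168 was highest at 232 CPM and the next at 147 CPM, against 1541, 1156, 621 and 849 CPM in control ileum. Duodenum levels were 430, 376, 387 and 361 CPM in mutant mice against 949, 691, 851 and 990 CPM in control mice. Cd74 fell by 2.65 in the ileum (SE 0.30, adjusted p = 0.000337), a 6.26-fold lower level, and by 1.15 in the duodenum (SE 0.15, adjusted p = 0.00244), a 2.22-fold lower level. In all these genes mutant mouse M168 was the highest mutant in the ileum, and control mouse C151 was the lowest control there.

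The DM chains, which load peptides, divided. H2-DMa averaged 6.15 ± 1.38 CPM in mutant ileum and 31.8 ± 13.1 CPM in control ileum, and 12.9 ± 1.77 CPM in mutant duodenum and 26.7 ± 3.39 CPM in control duodenum (SD, n = 4 mice each). It fell by 2.34 in the ileum (SE 0.29, adjusted p = 0.000524) and by 1.04 in the duodenum (SE 0.13, adjusted p = 0.00182). H2-DMa overlaps Brd2 on the opposite strand, and Brd2, a chromatin reader gene, averaged 135 CPM over the 16 libraries and did not pass the test in either tissue (log2 fold change -0.08 in the ileum and -0.28 in the duodenum). The library kit kept strand, but the strand setting of the counting is not given in the sources used here, and without it reads of the 2 genes in the shared stretch cannot be told apart. H2-DMb1 stood at 2.74, 2.71, 4.06 and 2.82 CPM in mutant ileum against 33.7, 19.3, 12.5 and 9.89 CPM in control ileum, and at 6.72 to 7.30 CPM in mutant duodenum against 10.9 to 17.9 CPM in control duodenum. It fell by 2.58 (SE 0.38, adjusted p = 0.00133) in the ileum and by 0.94 (SE 0.17, adjusted p = 0.0103) in the duodenum. The duodenum call of H2-DMb1 ended without mutant mice M167 and M177 (log2 fold change -0.95, adjusted p = 0.062).

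H2-DMb2, the second DM beta chain gene, followed another order of mice. In the ileum it stood at 0.493, 0.896, 1.29 and 0.536 CPM in the mutant mice against 2.22, 15.2, 2.41 and 16.4 CPM in the control mice. In the duodenum its levels were 0.935, 0.991, 3.67 and 1.99 CPM in mutant mice against 4.27, 8.42, 3.94 and 11 CPM in control mice. The groups did not overlap, but control mice C134 and C154 stood far above the other 2 controls in both tissues. H2-DMb2 fell by 3.47 in the ileum (SE 0.85, adjusted p = 0.0193) and did not pass the test in the duodenum (log2 fold change -1.85, SE 0.53, adjusted p = 0.0662). Without control mice C134 and C154 its log2 fold changes were -1.47 (adjusted p = 0.0215) and -1.10 (adjusted p = 0.319). H2-DMb1 and H2-DMb2 are neighbouring, related genes, so reads from stretches they share could be lost or split in counting.

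The DO chains followed H2-DMb2. H2-Ob stood at 0.214, 0.574, 0.592 and 0.554 CPM in mutant ileum against 1.62, 12.8, 1.71 and 15.6 CPM in control ileum, and at 0.557, 0.731, 2.11 and 1.05 CPM in mutant duodenum against 2.94, 6.10, 2.06 and 9.06 CPM in control duodenum. Here mutant mouse M168 overlapped with control mouse C151 in the duodenum. H2-Ob fell by 4.01 in the ileum (SE 0.95, adjusted p = 0.0174) and had a log2 fold change of -2.17 in the duodenum (SE 0.57, adjusted p = 0.0534). H2-Oa stood at 0.361, 0.154, 0.523 and 0.25 CPM in mutant ileum against 0.702, 4.12, 0.361 and 5.33 CPM in control ileum, so mutant mice M136 and M168 reached the level of control mouse C151. In the duodenum it stood at 0.298, 0.448, 0.877 and 0.859 CPM in mutant mice against 2.38, 3.05, 2.69 and 5.07 CPM in control mice, with no overlap. H2-Oa fell by 3.01 in the ileum (SE 0.90, adjusted p = 0.0353) and by 2.40 in the duodenum (SE 0.37, adjusted p = 0.00568). Without control mice C134 and C154 the H2-Oa values were -0.68 (adjusted p = 0.379) in the ileum and -2.02 (adjusted p = 0.0659) in the duodenum, and those of H2-Ob were -1.72 (adjusted p = 0.0124) and -1.15 (adjusted p = 0.271).

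Ciita, the coactivator on which transcription of the class II genes depends, had fold changes within the range of those of the peptide-binding chains and Cd74. It stood at 5.26, 6.42, 8.09 and 6.43 CPM in mutant ileum against 37.0, 41.4, 21.0 and 45.5 CPM in control ileum. Duodenum levels were 11.9, 11, 13.2 and 10.2 CPM in mutant mice against 22.7, 26.3, 21.3 and 32.9 CPM in control mice. Ciita fell by 2.44 in the ileum (SE 0.24, adjusted p = 0.000129) and by 1.14 in the duodenum (SE 0.15, adjusted p = 0.00228), with no overlap of groups in either tissue. Control mice C134 and C154 were the highest 2 libraries in each tissue, and without them its log2 fold changes were -2.09 (adjusted p = 0.000733) in the ileum and -0.92 (adjusted p = 0.0292) in the duodenum. Ciita shares a stretch with Dexi on the opposite strand, a gene with a mean of 5.2 CPM, and the same limit holds there.

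**Figure D2:**
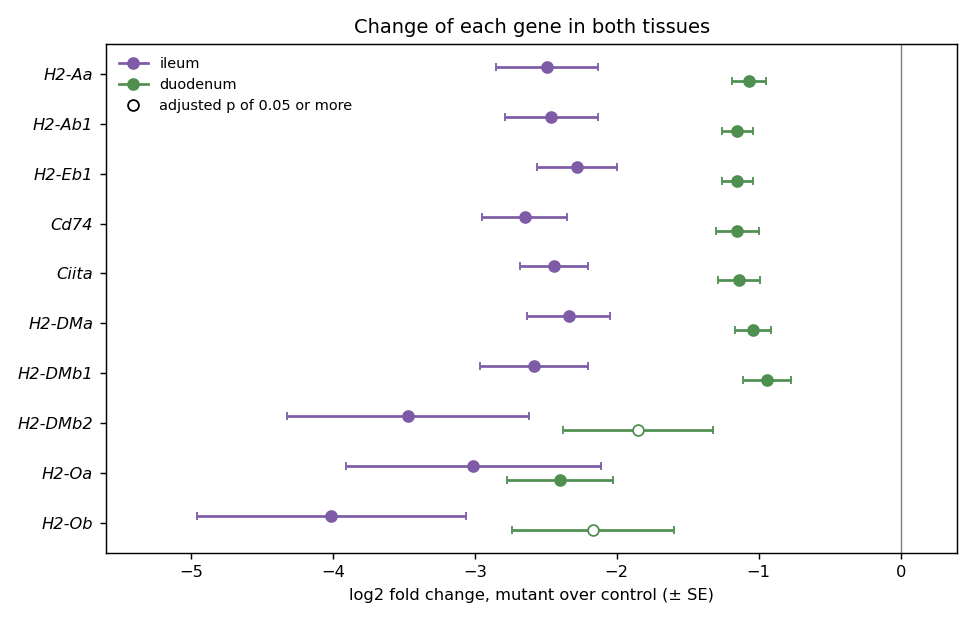
Log2 fold change of each gene, mutant over control, with SE bars, in the ileum (upper point of each pair) and the duodenum (lower point); open points did not pass an adjusted p of 0.05. In 7 genes the ileum values lie between -2.65 and -2.28 and the duodenum values between -1.15 and -0.94, while H2-DMb2, H2-Oa and H2-Ob have lower values and wider bars.

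The fall was larger in the ileum than in the duodenum for 7 of the 10 genes. In a fit to all 16 libraries, the difference of the genotype effects, ileum minus duodenum, passed the test for these 7, all with a lower value in the ileum, where 4.13% of all genes tested were called in that direction. It was -1.44 for H2-Aa (SE 0.37, adjusted p = 0.0312), -1.33 for H2-Ab1, -1.15 for H2-Eb1, -1.51 for Cd74 (SE 0.33, adjusted p = 0.0158), -1.32 for H2-DMa, -1.66 for H2-DMb1 and -1.31 for Ciita (SE 0.28, adjusted p = 0.0158). H2-DMb2, H2-Oa and H2-Ob did not pass (-1.62, -0.61 and -1.85, adjusted p of 0.267 to 0.704). The count changed with single mice left out: without mutant mouse M136, M167 or M177 alone 0, 3 and 2 genes passed, without control mouse C133, C134 or C154 alone 0, 1 and 3 genes passed, and without M168 or C151 alone 7 passed. Without control mice C134 and C154 together no gene passed in edgeR's test, with values between -1.72 and 1.27 (adjusted p of 0.0939 to 0.745), and H2-Oa was the gene above 0. With the mouse as a block the same count of 7 passed.

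The tissues differed in mutant mice, where 7 genes were lower in the ileum than in the duodenum, against 18.2% of all genes tested. Per gene, the log2 fold change, ileum over duodenum, ran from -1.39 (H2-Ab1) to -0.80 (Ciita) among the 7, and the groups of libraries did not overlap in any of them, which held for 18.9% of all genes tested. H2-DMb2, H2-Oa and H2-Ob did not pass (-1.22, -0.93 and -1.18). With the mouse as a block 9 genes passed, H2-DMb2 (adjusted p = 0.0185) and H2-Ob (adjusted p = 0.0238) among them. In control mice no gene passed edgeR's test between tissues, where 58.3% of all genes tested were called in either direction, and 0 had an unadjusted p under 0.05, against 62.9% of all genes tested. DESeq2 called 1 gene, Ciita (log2 fold change 0.53, adjusted p = 0.033), and limma-voom none. Ciita also passed with the mouse as a block (0.47, adjusted p = 0.00704). H2-Aa averaged 300 ± 132 CPM in control ileum and 275 ± 25.2 CPM in control duodenum, a log2 fold change of 0.13 (SE 0.30). Without control mice C134 and C154, H2-DMb2 (-0.80, adjusted p = 0.00886) and H2-Oa (-2.20, adjusted p = 0.000152) were lower in the ileum than in the duodenum of the other 2 controls.

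Levels between genes can be compared per exon length, here the union of all annotated exons of a gene, which can exceed the length of its main transcript. The order of genes depends on these lengths, which reach 9.535 kb for Ciita and 5.38 kb for H2-Ob. In CPM per kb, Cd74 led with 96.9 ± 27.6 in mutant ileum, 620 ± 238 in control ileum, 231 ± 17.6 in mutant duodenum and 518 ± 79.3 in control duodenum (SD, n = 4 mice each). H2-Ab1, H2-Eb1 and H2-Aa came next in every group, at 17.7 ± 5.31, 19.9 ± 5.98 and 13.7 ± 4.32 CPM per kb in mutant ileum, against 99.3 ± 40.1, 98.8 ± 30.6 and 79.0 ± 34.8 CPM per kb in control ileum. H2-Aa was the lowest of these 3 in all 16 libraries, and the order of H2-Ab1 and H2-Eb1 varied between libraries. In counts H2-Aa was not the lowest, with 94.2 to 124 per 100 of H2-Ab1 against 67.8 to 90.5 for H2-Eb1. Its place per kb thus rests on its exon length of 3.798 kb, against 2.568 kb for H2-Ab1 and 1.944 kb for H2-Eb1. H2-DMb1 and H2-DMa followed with 1.84 ± 0.388 and 1.78 ± 0.40 CPM per kb in mutant ileum, against 11.2 ± 6.34 and 9.21 ± 3.79 CPM per kb in control ileum, and their order varied between libraries. H2-DMb2, Ciita, H2-Oa and H2-Ob took the last places, from 0.0898 CPM per kb (H2-Ob, mutant ileum) to 5.18 CPM per kb (H2-DMb2, control ileum). The order of Ciita and H2-DMb2 differed between mice. In control ileum H2-DMb2 stood at 8.69 and 9.36 CPM per kb in C134 and C154, above Ciita at 4.34 and 4.77, and at 1.27 and 1.38 CPM per kb in C133 and C151, below Ciita at 3.89 and 2.21. In control duodenum H2-DMb2 stood at 4.82 and 6.31 CPM per kb in C134 and C154 against 2.75 and 3.45 for Ciita, and both genes lay between 2.24 and 2.44 CPM per kb in C133 and C151. Ciita was the higher gene in all 4 mutant ileum libraries, with means of 0.687 ± 0.122 for Ciita and 0.46 ± 0.212 CPM per kb for H2-DMb2, and in mutant duodenum it was higher in M136 and M167 and lower in M168 and M177.

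Ratios of counts within a library compare the genes directly. For every 100 counts of H2-Ab1, H2-Aa had 107 to 118 in mutant ileum and 108 to 124 in control ileum, and 95.7 to 116 in mutant duodenum and 94.2 to 118 in control duodenum. H2-DMa had 12.4 to 14.7 counts per 100 of H2-Ab1 in mutant ileum and 11.3 to 13.2 in control ileum, and 9.62 to 11.7 in mutant duodenum and 9.35 to 10.6 in control duodenum. Both ratios overlapped between genotypes in each tissue, whereas the levels had not. Cd74 had 336 to 378 counts per 100 of H2-Ab1 in mutant ileum against 384 to 429 in control ileum, where the groups did not overlap, and 297 to 354 in mutant duodenum against 286 to 385 in control duodenum, where they did. The ratio of H2-DMb2 to H2-DMb1 behaved otherwise. It was 18 to 33 counts per 100 in mutant ileum and 6.6, 78.7, 19.2 and 165 in control ileum, and 12.8 to 54.7 in mutant duodenum and 29.3, 75.8, 22.0 and 101 in control duodenum. In both tissues the highest 2 ratios belonged to control mice C134 and C154, and so did the highest 2 ratios of H2-Ob to H2-DMa, with 37.7 and 63.4 counts per 100 in their ileum against 3.3 to 11 in the other 6 ileum libraries.

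**Figure D3:**
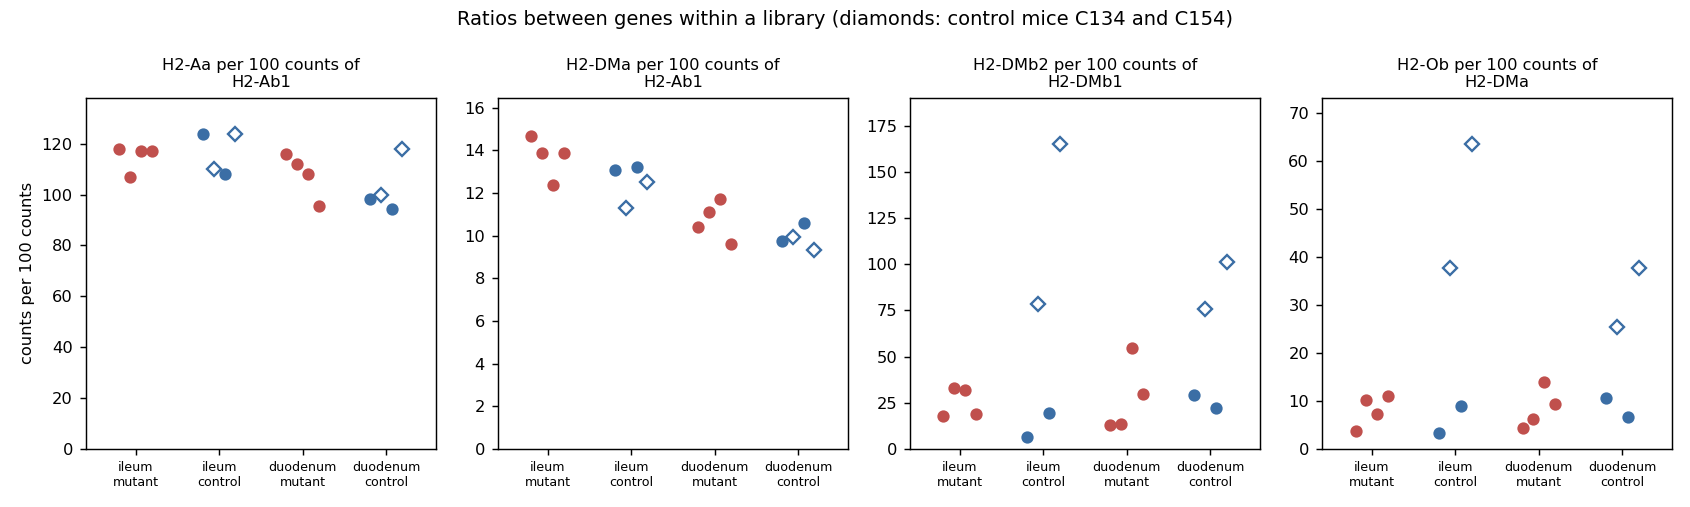
Counts of one gene per 100 counts of another (vertical axes, from 0) in each library, with mutant mice in red, control mice in blue and control mice C134 and C154 as diamonds. The ratios of H2-Aa and H2-DMa to H2-Ab1 overlap between genotypes, and H2-DMb2 and H2-Ob stand high against H2-DMb1 and H2-DMa in the diamonds.

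The control mice that stood highest in H2-DMb2, H2-Oa, H2-Ob and Ciita also stood high in B cell transcripts. In mice C134 and C154 the 8 B cell genes summed to 148 and 173 CPM in the ileum and to 53.9 and 91.2 CPM in the duodenum. In control mice C133 and C151 the sums were 11.2 and 14 CPM in the ileum and 16.3 and 17.1 CPM in the duodenum, and in mutant mice they were 4.6 to 7.61 CPM in the ileum and 10.1 to 23.7 CPM in the duodenum, with mouse M168 highest in both tissues. None of the 8 B cell genes was at 0 in every library of a group. After removal of the 4 group means, log2 levels over the 16 libraries correlated with the summed B cell genes at Pearson's r of 0.93 for H2-DMb2, 0.84 for H2-Oa and 0.95 for H2-Ob. The same r was 0.74 for Ciita, 0.06 for H2-Aa, -0.01 for H2-Ab1, 0.18 for H2-Eb1, -0.01 for Cd74, -0.14 for H2-DMa and -0.51 for H2-DMb1. These are descriptions over libraries of 8 mice that share mouse, depth and scaling, and 2 mice supply most of the range of B cell transcripts. H2-Aa, H2-Ab1, H2-Eb1, Cd74, H2-DMa and H2-DMb1 correlated at 0.76 to 0.99 with the mean of the first 4 of them, which those 4 help to make, against 0.07 to 0.30 for H2-DMb2, H2-Oa and H2-Ob and 0.62 for Ciita.

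**Figure D4:**
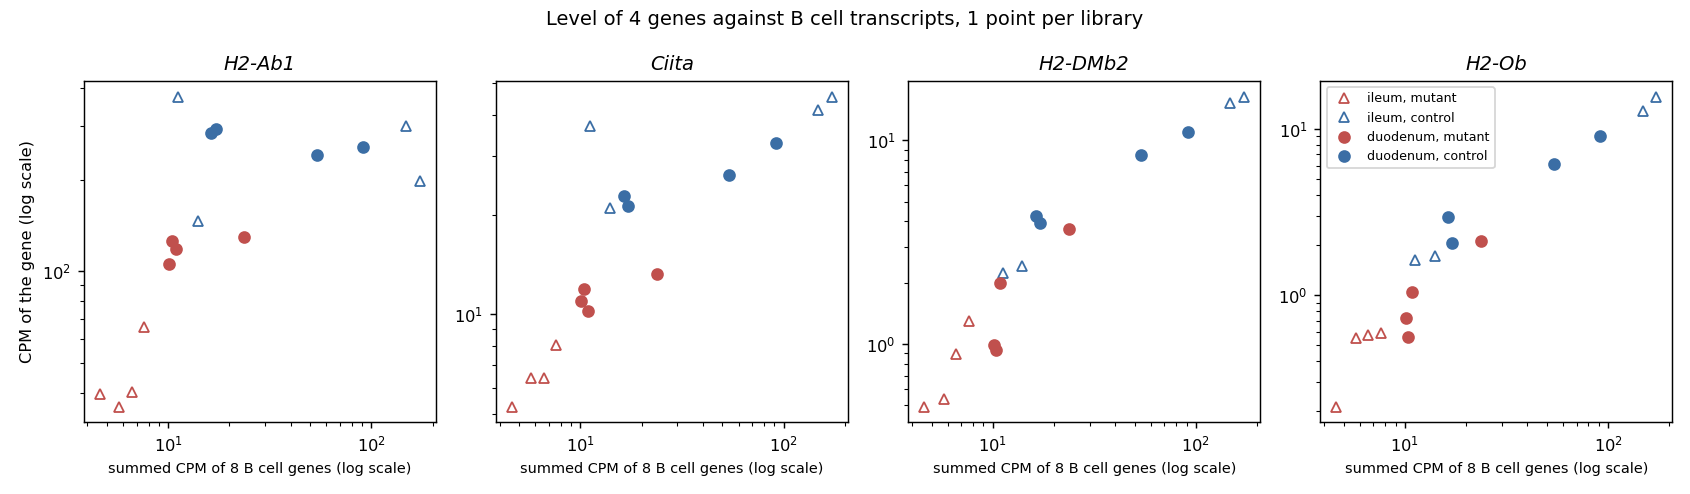
CPM of H2-Ab1, Ciita, H2-DMb2 and H2-Ob (vertical axes, log scale) against the summed CPM of 8 B cell genes (horizontal axes, log scale), 1 point per library. H2-DMb2 and H2-Ob are highest in the 4 libraries with the highest B cell sums. H2-Ab1 is lower in every mutant library than in every control library of the same tissue. The B cell sums of the genotypes overlap in the duodenum but not in the ileum.

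The other 7 genes also fell without the mice rich in follicle transcripts. Without control mice C134 and C154 the log2 fold changes of H2-Aa, H2-Ab1, H2-Eb1, Cd74, H2-DMa, H2-DMb1 and Ciita were -2.85 to -2.09 in the ileum and -1.25 to -0.92 in the duodenum, and all 7 passed in both tissues. With the mean level of 8 follicle and M cell genes as a covariate, 9 of the 10 genes were lower in the ileum and 10 in the duodenum. That list holds Gp2, a gene of M cells and also of pancreatic acinar cells, which reached 4872 CPM in mutant duodenum. Left out of the covariate, a fit added after the data were seen, 9 genes were lower in the ileum and 8 in the duodenum. The log2 fold changes in that fit were -1.43 (ileum) and -1.25 (duodenum) for H2-Ob, -1.20 and -1.15 for H2-DMb2, and -0.46 (adjusted p = 0.521) and -2.03 (adjusted p = 0.018) for H2-Oa.

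Markers of the other cells that carry class II molecules moved with the genotype as well. Of all genes tested, 14.6% fell in the ileum and 5.11% in the duodenum. Of 8 dendritic cell genes, 6 fell in mutant ileum and 4 in mutant duodenum, with sums of 17.4 to 26.5 CPM in mutant ileum against 35.1 to 45.1 CPM in control ileum and 33.5 to 36.7 CPM in mutant duodenum against 54.1 to 67.4 CPM in control duodenum. Cd209a, a lectin gene of dendritic cells, fell by 2.68 in the ileum (adjusted p = 0.000118) and by 2.81 in the duodenum (adjusted p = 0.000268), and Flt3, a growth factor receptor gene of their lineage, fell by 1.77 and 1.42. Of 10 macrophage genes, 7 fell and 1 rose in each tissue, with sums of at most 209 CPM in mutant ileum against 251 to 310 CPM in control ileum and 289 to 367 CPM in mutant duodenum against 429 to 493 CPM in control duodenum. The riser was Mrc1 in the ileum (0.49) and Cd163 in the duodenum (1.07), while the macrophage gene Adgre1 fell by 0.98 and 0.90. All 8 B cell genes fell in mutant ileum, and of the 3 that could be tested in the duodenum Cd22 fell (by 1.47, adjusted p = 0.0267). The part of these cells in the fall of the class II genes was not tested. Median log2 fold changes were -1.10 (ileum) and -0.97 (duodenum) for the dendritic cell list and -0.65 and -0.54 for the macrophage list, beside -2.53 and -1.15 for the 10 class II genes.

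The T cell list is not limited to the CD4 T cells that read class II molecules, and it also holds Cd8a. Its genes fell in 6 of 6 cases in the ileum and in 2 of 6 in the duodenum. The shares of all genes tested that fell were 14.6% and 5.11%. Their sum was 8.63 to 15.8 CPM in mutant ileum against 31.6 to 52.4 CPM in control ileum, and 32.0 to 53.5 CPM in mutant duodenum against 65.9 to 85.2 CPM in control duodenum. Cd4, the coreceptor gene for class II, fell by 1.59 in the ileum (adjusted p = 0.000589) and by 0.70 in the duodenum (adjusted p = 0.0139). Cd8a, the coreceptor gene for class I, fell by 2.63 in the ileum and had a log2 fold change of -0.86 in the duodenum (adjusted p = 0.068). For 5 of the 6 T cell genes (Cd3d, Cd3e, Cd3g, Cd4 and Cd8a) the fall was larger in the ileum by the test of the difference. Among all genes tested 4.13% were called in that direction, and these 796 calls became 8 without control mice C134 and C154.

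Genes for the enzymes and partners that prepare class II peptides fell in part. Of 12 processing genes, 5 fell in mutant ileum and 1 in mutant duodenum, with median log2 fold changes of -0.14 and -0.11. Over all genes tested, 14.6% fell in the ileum and 5.11% in the duodenum. March1, a ubiquitin ligase gene that removes class II molecules from the surface, fell by 1.67 in the ileum (adjusted p = 0.00183) and by 0.73 in the duodenum (adjusted p = 0.0438). Ctss, the cathepsin gene that trims the invariant chain in antigen-presenting cells, averaged 76.2 CPM in mutant ileum and 158 CPM in control ileum and fell by 1.03 (adjusted p = 0.000129), and in the duodenum its log2 fold change was -0.47 (adjusted p = 0.053). Ctsl, the cathepsin gene that does so in thymic epithelium, had values of 0.26 in the ileum and 1.0 in the duodenum (adjusted p = 0.06 and 0.0607). Costimulatory genes fell in 4 of 6 cases in the ileum and 2 of 6 in the duodenum. Cd274, which encodes the inhibitory ligand PD-L1, fell by 1.47 (adjusted p = 0.000807) and 0.66 (adjusted p = 0.0258), and Cd86, which encodes an activating ligand, by 1.41 (adjusted p = 0.00282) and 0.83 (adjusted p = 0.0326).

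**Figure D5:**
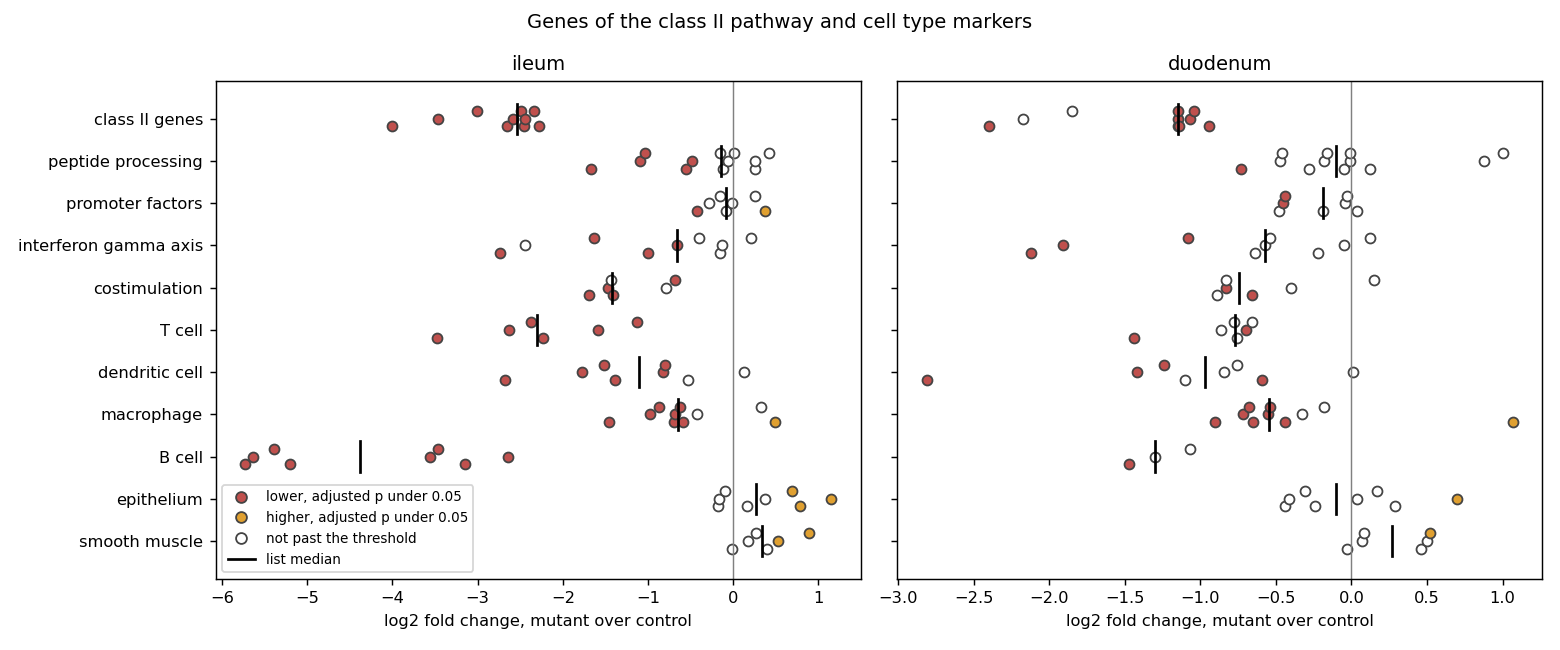
Log2 fold change, mutant over control, of every tested gene in 11 lists, in the ileum and the duodenum; filled points passed an adjusted p of 0.05 and bars mark list medians. The class II genes lie at a median of -2.53 in the ileum and -1.15 in the duodenum, the medians of the processing genes and promoter factors lie between -0.19 and -0.09 while single processing genes reach -1.67 (March1, ileum), and the 2 panels have different horizontal scales.

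Some genes for the factors that bind class II promoters with CIITA passed the test. Of 7 such genes, Nfya fell and Nfyb, another NF-Y subunit gene, rose in mutant ileum, by 0.42 (adjusted p = 0.0151) and 0.37 (adjusted p = 0.0137). Of all 18310 genes tested in the ileum, 2672 fell and 3474 rose, so these calls do not set the list apart. In the duodenum 5.11% of all genes tested fell. Rfx5 and Rfxank, subunits of the RFX complex, fell in mutant duodenum by 0.44 (adjusted p = 0.0308) and 0.45 (adjusted p = 0.0232), and had log2 fold changes of -0.29 and -0.09 in the ileum. The genes of the interferon gamma axis, which acts upstream of Ciita, were mixed. Cxcl9, a chemokine gene that interferon gamma induces, stood at 0.546 to 1.78 CPM in mutant ileum against 4.14 to 9.2 CPM in control ileum, and at 2.05 to 7.58 CPM in mutant duodenum against 13.5 to 20.5 CPM in control duodenum. It fell by 2.74 (adjusted p = 0.000616) and 1.91 (adjusted p = 0.0172). Irf1, which drives Ciita in epithelial cells, fell by 0.66 in the ileum (adjusted p = 0.00673) and had a value of -0.64 in the duodenum (adjusted p = 0.0629). In all, 4 of 9 tested genes of the axis fell in the ileum and 3 in the duodenum. Ifng itself was too low to test, with 0 counts over the 4 libraries of mutant ileum against 9 counts in control ileum, and 6 counts in mutant duodenum against 16 counts in control duodenum.

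CIITA acts on promoters through an X box, which RFX binds, and a Y box, which NF-Y binds. RefSeq promoter sequences (GRCm38.p6, 250 bases before to 50 bases after each start) were at hand for 7 of the 10 genes, all on chromosome 17. The stretches from 130 to 31 bases before the start are shown for 5 of the 6 genes whose stretch holds the Y box core, since these letters are shared by genes whose levels moved together and by genes whose levels did not. Capitals mark the Y box core ATTGG on either strand and a relaxed X box (ANNNAC directly followed by NNATG, read on either strand), which was chosen after the sequences were seen.
H2-Eb1, chr17:34305737-34305836, plus strand: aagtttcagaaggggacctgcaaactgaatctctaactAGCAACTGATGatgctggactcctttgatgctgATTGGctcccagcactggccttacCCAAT
H2-DMb1, chr17:34153061-34153160, plus strand: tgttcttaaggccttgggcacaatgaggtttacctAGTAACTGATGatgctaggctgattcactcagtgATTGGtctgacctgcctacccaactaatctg
H2-DMb2, chr17:34145119-34145218, plus strand: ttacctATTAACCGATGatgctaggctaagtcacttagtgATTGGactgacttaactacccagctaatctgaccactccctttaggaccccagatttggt
H2-Ob, chr17:34238775-34238874, plus strand: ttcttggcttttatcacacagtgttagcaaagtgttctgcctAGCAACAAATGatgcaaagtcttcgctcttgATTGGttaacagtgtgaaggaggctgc
H2-Aa, chr17:34287854-34287953, minus strand: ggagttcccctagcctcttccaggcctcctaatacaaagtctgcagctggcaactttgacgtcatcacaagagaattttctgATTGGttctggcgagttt
In the first 4 of these genes the match to the relaxed X box stands upstream of the Y box core on the same strand, with the first bases of both motifs 31 to 34 bases apart. Both genes of the DM beta pair, whose levels followed different mice, keep the same spacing of 34 bases. H2-Aa has no match to the relaxed X box in its 300 bases, and a miss of these letters does not show that it lacks an X box. H2-Oa, the gene not shown, has its X box outside this stretch and holds both motifs, 141 and 43 bases before its start and so 98 bases apart. H2-DMa, which moved with the peptide-binding chains, has 2 promoter entries, of which neither matches the relaxed X box and 1 holds ATTGG, 198 bases before its start. The other entry (34122582 to 34122881) takes in the start of Brd2 on the opposite strand, at 34122634. Which start of H2-DMa these tissues use was not tested, so the missing match does not show that the gene lacks an X box. Among 32851 promoters of the same length, 37.4% hold ATTGG on either strand, 9.91% hold the relaxed X box, and 0.122% hold the relaxed X box followed by ATTGG at a distance of 25 to 40 bases. That window was not planned beforehand and takes in the distances of the first 4 genes, so the last share is not an independent background. A stricter X box, AGNNAC directly followed by NGATG on either strand, is held by 0.968% of all promoters and by those of H2-Eb1, H2-DMb1 and H2-Oa. A match of letters is a description and does not show that a factor binds there.

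The H2 genes of the set lie together, as does a group of class I processing genes between them. All members but Cd74 (chromosome 18) and Ciita (chromosome 16) fall within 224 kb of chromosome 17 (GRCm38, 34092340 to 34316674). There H2-Ab1 spans 34257689 to 34269419 on the plus strand, H2-Aa 34282744 to 34287823 on the minus strand and H2-Eb1 34305867 to 34316674 on the plus strand. The stretch holds 13 other annotated genes. Of these 13, 5 were tested and 4 fell in both tissues: Psmb8 and Psmb9, subunits of the immunoproteasome, and Tap1 and Tap2, the peptide transporter of the class I pathway. Of all genes tested, 14.6% fell in the ileum and 5.11% in the duodenum. Psmb8 averaged 9.09 ± 3.19 CPM in mutant ileum and 44.8 ± 13.2 CPM in control ileum, and 59.1 ± 12.2 CPM in mutant duodenum and 126 ± 15.7 CPM in control duodenum (SD, n = 4 mice each). It fell by 2.27 (adjusted p = 0.000498) and 1.08 (adjusted p = 0.00385), and its fall was larger in the ileum (difference -1.21, adjusted p = 0.0377). Tap1 fell by 1.56 and 1.06, Tap2 by 1.38 and 0.81, and Psmb9 by 1.83 and 1.19, and Brd2 is the tested neighbour that did not pass. These neighbours were chosen by position.

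Genes outside the set with the most similar levels were sought among 14249 genes with a mean of at least 1 CPM. Over the 16 libraries, the log2 levels of Cd274 correlated best with the mean of H2-Aa, H2-Ab1, H2-Eb1 and Cd74 (r = 0.97), followed by Iigp1, Slamf7, Tnfaip3 and Stat5b (r = 0.95 each), as a description over libraries that share mice and groups. Cd274 stood at 1.66 to 2.93 CPM in mutant ileum against 4.5 to 7.44 CPM in control ileum, and at 3.82 to 4.8 CPM in mutant duodenum against 6.15 to 7.99 CPM in control duodenum. After removal of the 4 group means the order changed, and Gm15427, H2-T22, Tap1, Bri3bp and Psmb8 had the highest r (0.83 to 0.87). Of these, H2-T22 is a class I gene, and Tap1 and Psmb8 are the class I processing genes of the same region.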

How the data were processed

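Per the labels' protocols, stranded total RNA libraries were made after depletion of ribosomal RNA. The authors deposited raw counts for 55359 Ensembl identifiers in 16 libraries. Per the submitters' processing notes, the assembly was mm39 and the tools included HTSeq 0.6.1p1, STAR 2.5.3a, Bowtie2 2.2.8 and cutadapt 1.10. Neither the strand setting of the counting nor its annotation release is stated in the sources used here. Names, exon lengths and neighbours came from GENCODE M21 (GRCm38), which named 52083 identifiers.

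Each tissue was fitted with edgeR 4.0.16 (R 4.3.3): filterByExpr, scaling by the trimmed mean of M values, robust quasi-likelihood F test, and Benjamini-Hochberg adjustment over all genes tested. Differences between tissues came from fits to all 16 libraries or to the 8 of a genotype. The fits were tested on simulated data. CPM used scaling over all 16 libraries, and log2 levels a prior count of 2.

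Titles number the mice, and the same number in both tissues is read as the same mouse. Residuals of the 2 tissues correlated best within the mouse in 8 of 8 mice (r between 0.379 and 0.694; the best r with any other mouse lay between 0.198 and 0.384), so the numbers pair the samples and the mouse block was an alternative.

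The members and the lists were chosen with earlier results of these data known. All 10 members are named, and from every other list up to 4 genes with the smallest p in the duodenum, with Neurog3, Cr2, Rfx5 and Irf1. A gene that this rule names is not reported here. Cd3e, Cd3g, Mrc1, Cd163 and Nfyb were chosen after their values were seen. Alternatives were DESeq2 1.42.0 size factors and Wald test, limma-voom (limma 3.58.1), other count filters, mice left out, covariates and the mouse block.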

Additional observations from a re-analysis of the deposited data

Results flagged for a closer look

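Within groups of 4 libraries, 6 of 40 combinations of gene and group had a library far from the other 3 (chance alone gives about 1 in 20). In mutant ileum mouse M168 was the high library in 5 of them, with 76.6 CPM for H2-Aa, 65.6 CPM for H2-Ab1, 56.0 CPM for H2-Eb1, 4.06 CPM for H2-DMb1 and 232 CPM for Cd74. These 5 genes move together, so they count as 1 pattern of 1 library. In the same library the dendritic cell genes summed to 26.5 CPM against 17.4 to 19.9 CPM in the other 3 mutant ileum libraries, and the T cell genes to 15.8 CPM against 8.63 to 9.70 CPM, and their part in these levels was not tested. The other was H2-Ob in mutant ileum mouse M136, low at 0.214 CPM from 13 counts.

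The genotype effect differed between tissues, by edgeR's test of the difference (ileum minus duodenum, log2), for H2-Aa (-1.44), H2-Ab1 (-1.33), H2-Eb1 (-1.15), H2-DMa (-1.32), H2-DMb1 (-1.66), Cd74 (-1.51) and Ciita (-1.31).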

How the results depend on the processing

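In the genotype comparisons no gene changed sign under any alternative run, and 7 to 10 of the 10 genes were lower in either tissue. Of 189 values under alternatives in the ileum 19 lost their call, all in H2-DMb2, H2-Oa and H2-Ob, and of 190 in the duodenum 2 lost and 7 gained one. In the ileum H2-Oa, which the 1 CPM filter left untested, kept its call in 6 of 18 alternatives (adjusted p of 0.00332 to 0.521), and the log2 fold changes of H2-DMb2 and H2-Ob reached -1.20 and -1.43 with the follicle covariate that lacks Gp2. The difference between tissues was the least stable: 3 genes passed without a filter, 0 to 7 with 1 mouse left out, and 0 when either the pair C134 and C154 or the pair M167 and M177 was left out. Its H2-Oa value turned to 0.17 with limma-voom and to 1.27 without mice C134 and C154. Between tissues of control mice, 1 gene (Ciita) was higher with DESeq2 and 1 with the mouse block, 0 to 1 with 1 mouse left out, and 2 were lower without mice C134 and C154. With 1 mouse left out H2-Aa ran from -0.13 to 0.35, H2-Ab1 from -0.27 to 0.17 and H2-Eb1 from -0.21 to 0.10. H2-DMb2 turned to -0.16 with limma-voom, and H2-DMb2 and H2-Ob to -0.80 and -0.56 without mice C134 and C154. The cause was not tested. In mutant mice the replicate block gave 9 genes lower in the ileum, and in control mice it added the call of Ciita. The block cannot be used between genotypes within a tissue, where each mouse has 1 library. Over all genes, calls in either direction changed by more than 1.5 times: in the duodenum 900 lower and 606 higher genes were 1585 and 1387 with DESeq2 and 163 and 37 without mice C134 and C154, and for the difference 796 and 938 were 1428 and 1771 with DESeq2, 8 and 14 without those mice, and 1937 and 2090 with the block. H2-Oa and H2-Ob rest on 11 to 41 counts per library in mutant ileum, so small differences among those libraries were not detectable.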
